A study of Mus musculus with 48 samples.

Results

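The comparison described here is valproic acid (VPA) against saline in the liver of male mice lacking functional wolframin (Wfs1 KO). Its members are the 16 of 48 samples whose labels name the KO genotype, 8 injected with VPA and 8 with saline, with 1 array per mouse. VPA had been given i.p. at 300 mg/kg each day and saline at 10 mL/kg, from an age of 4 to 6 weeks for 12 weeks. All mice received a glucose tolerance test with 2 g/kg of glucose 24 hours after the last injection and were killed 24 hours later, at 16 to 18 weeks, so the liver was taken 48 hours after the last dose. WT mice and HZ mice, with both or 1 of their Wfs1 copies intact, had the same injections, 8 mice per treatment, and enter here for comparison. The mutation invalidates the last exons of Wfs1 and leaves the others intact, and it is carried by every cell of the mouse, so the liver of a KO mouse is also that of an animal with an altered pancreas and growth.

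Wolframin is a membrane protein of the endoplasmic reticulum that restrains the unfolded protein response, and its loss impairs insulin secretion and glucose tolerance. VPA is a branched fatty acid used against epilepsy and bipolar disorder. It inhibits histone deacetylases, is activated to a CoA ester, conjugated to carnitine or glucuronic acid, and oxidised along the routes that handle fatty acids, so the liver is both where it is cleared and where its toxicity shows. Sex-biased liver genes follow the rhythm of growth hormone release, cholesterol synthesis follows SREBP2, and a large share of liver genes follows the circadian clock.

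Promoter sequences are shown for Cenpm, one of the genes that rose in KO mice, for Hmgcs1, which stands for cholesterol synthesis, and for Arntl, the activator of the clock. Each runs 5′ to 3′ on the strand of the gene, from 250 bases before to 50 bases after the start of transcription, in build GRCm38.p6. Capitals mark the CCAAT box (CCAAT) in Cenpm at chr15:82244287-82244586 (minus strand), the sterol element (TCACNCCAC) in Hmgcs1 at chr13:119690101-119690400 (plus strand) and the ROR element core (TAGGTCA) in Arntl at chr7:113207261-113207560 (plus strand). Only the motif named for a gene is in capitals in its sequence.
Cenpm: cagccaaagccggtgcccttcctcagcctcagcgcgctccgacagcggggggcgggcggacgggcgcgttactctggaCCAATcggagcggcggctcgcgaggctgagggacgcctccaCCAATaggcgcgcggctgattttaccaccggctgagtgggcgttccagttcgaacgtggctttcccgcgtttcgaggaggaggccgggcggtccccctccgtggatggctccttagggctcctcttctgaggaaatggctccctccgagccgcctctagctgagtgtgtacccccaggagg
Hmgcs1: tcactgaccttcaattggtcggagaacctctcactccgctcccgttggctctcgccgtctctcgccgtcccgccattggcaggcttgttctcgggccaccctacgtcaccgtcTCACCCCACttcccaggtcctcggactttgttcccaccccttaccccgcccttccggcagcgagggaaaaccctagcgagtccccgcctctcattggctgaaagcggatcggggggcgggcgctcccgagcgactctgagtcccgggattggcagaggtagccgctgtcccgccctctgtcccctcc
Arntl: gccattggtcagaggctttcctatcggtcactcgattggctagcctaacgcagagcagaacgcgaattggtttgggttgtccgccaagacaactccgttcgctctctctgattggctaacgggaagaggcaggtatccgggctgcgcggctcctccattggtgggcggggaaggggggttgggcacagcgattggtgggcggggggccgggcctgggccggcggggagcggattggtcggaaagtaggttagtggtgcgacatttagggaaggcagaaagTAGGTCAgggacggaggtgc

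Both strands were searched. The CCAAT box occurred 2 times in the Cenpm window and was present in 41.7% of the 15614 measured genes with a promoter, the sterol element in 1.4% and the ROR element core in 2.63%. Of 16 genes of cholesterol synthesis with a promoter, 16 held a CCAAT box and 1, Hmgcs1, the sterol element. Of 6 clock repressors, 4 held the E-box CACGTG, against 9.5% of measured genes. The D-box TTATGTAA (0.999% of measured genes) and the DR1 element of PPAR receptors, AGGTCA repeated after 1 base (0.0512%), were not in the Cenpm window. These matches describe letters in a window.

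Wfs1 itself did not separate the groups. The KO mice lay between 8.13 and 8.42 with saline and between 8.01 and 8.67 with VPA, on the log2 scale of the array, beside 8.24 to 8.60 in WT saline mice. VPA minus saline in KO mice was 0.06 (SE 0.10, adjusted p = 0.949, exact permutation p = 0.472, two-sided). The probeset covers the gene as a whole, with exons that the mutation leaves intact, so its level does not by itself check the genotype.

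Few transcripts passed the test in KO liver. Of 35556 probesets, 4 passed an adjusted p of 0.05, all higher with VPA, which is 0.0112% of those tested, and none was lower. At an unadjusted p under 0.05 there were 2547 probesets (7.16%), and at an unadjusted p under 0.001 there were 115 (0.323%), 60 higher and 55 lower. In the same fit 25 probesets passed in WT mice (0.0703%) and 3726 in HZ mice (10.5%). These shares are not differences between genotypes, which were tested separately. With only the 16 KO arrays in the fit none of the 4 passed, with 2103 probesets at an unadjusted p under 0.05. The count ran from 1 to 23 when single KO arrays were left out, the highest without KO saline mouse 2.

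**Figure D1:**
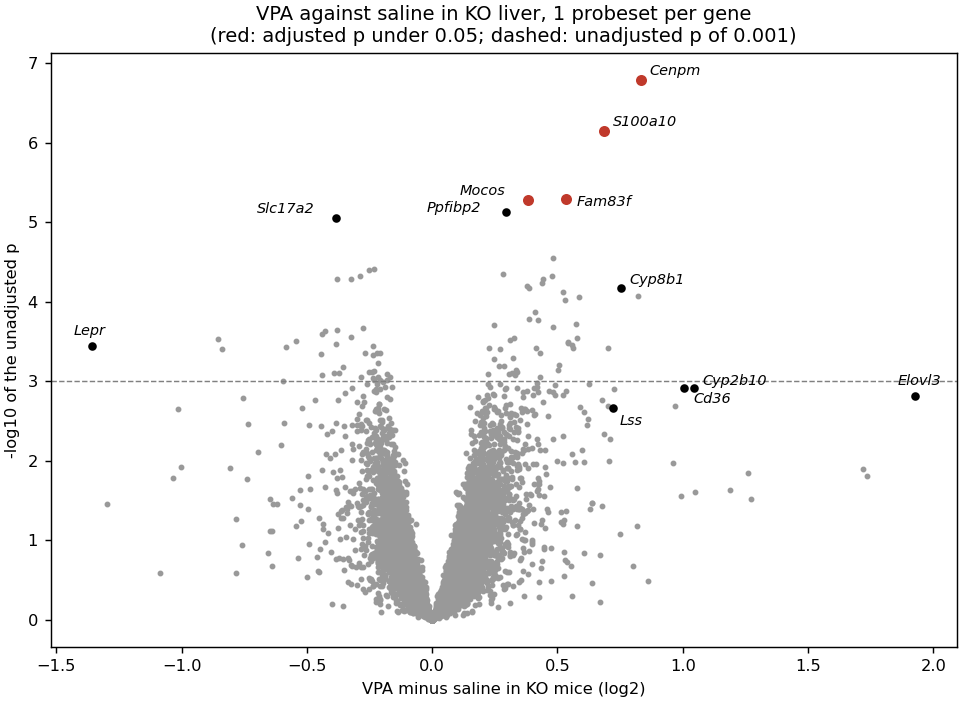
VPA minus saline in KO mice on the x axis (log2) against minus log10 of the unadjusted p on the y axis, for 1 probeset per gene; red points passed an adjusted p of 0.05 and named black points did not. The 4 red points lie right of 0, with Cenpm at 0.83, while the largest differences, Elovl3 at 1.93 and Lepr at -1.36, lie lower, with an SE of 0.57 and 0.35.

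The gene with the smallest p was Cenpm, a protein of the centromere that helps to assemble the kinetochore. Its level was 7.82 to 8.37 in KO saline mice (median 8.09) and 8.50 to 9.38 in KO VPA mice (median 8.88). The lowest VPA mouse was above the highest saline mouse. The difference was 0.83 (SE 0.13, adjusted p = 0.00583, 1.78-fold). The exact two-sided permutation p of 0.000155 is the smallest that 12870 splits of the 16 mice can give. Cenpm, S100a10, Fam83f and Mocos were picked from 35556 probesets by their p on these same mice. Their permutation p-values are not adjusted for that choice and are not separate evidence. WT saline mice, at a mean of 8.45, and HZ saline mice, at 8.81, were both above KO saline mice, at 8.07. Of the 16 fits that each left out 1 KO mouse, Cenpm passed in 16, S100a10 in 13, Fam83f in 5 and Mocos in 5.

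S100a10, a calcium-binding partner of annexin A2, also rose. The KO saline mice ran from 10.4 to 11.6 (median 11.3) and the KO VPA mice from 11.5 to 12.3 (median 11.9), and 7 of 8 VPA mice were above every saline mouse. The difference was 0.68 (SE 0.12, adjusted p = 0.0128, 1.61-fold, exact permutation p = 0.000622). KO saline mouse 4, at 10.4, stood apart below its group. The KO VPA mean of 11.92 was near the 11.90 of WT saline mice.

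Fam83f, of a family of scaffold proteins that bind casein kinase 1, rose by 0.53 (SE 0.10, adjusted p = 0.0469). Its KO saline mice lay between 6.27 and 6.79 (median 6.55) and its KO VPA mice between 6.80 and 7.44 (median 6.96), with no overlap and an exact permutation p of 0.000155. Mocos, the sulfurase that activates the molybdenum cofactor of xanthine dehydrogenase and aldehyde oxidases, rose by 0.38 (SE 0.07, adjusted p = 0.0469, exact permutation p = 0.00171). Its KO saline mice ran from 8.69 to 9.34 (median 9.12) and its KO VPA mice from 9.19 to 9.72 (median 9.53). There 6 of 8 VPA mice were above every saline mouse, and the groups overlapped in the rest.

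The same genes were examined in WT and HZ mice. VPA minus saline was 0.28 in WT mice and -0.02 in HZ mice for Cenpm, 0.28 and 0.25 for S100a10, 0.27 and 0.29 for Fam83f, and 0.22 and 0.25 for Mocos. Of these 8 values, that of Mocos in HZ mice passed (adjusted p = 0.0237). The effect on Cenpm differed between KO and HZ mice by 0.85 (SE 0.19, adjusted p = 0.0361), and none of the 4 passed for KO against WT. S100a10, Fam83f and Mocos are on the study's list of genes altered by VPA, which was chosen on these mice and so is not independent evidence of their direction.

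**Figure D2:**
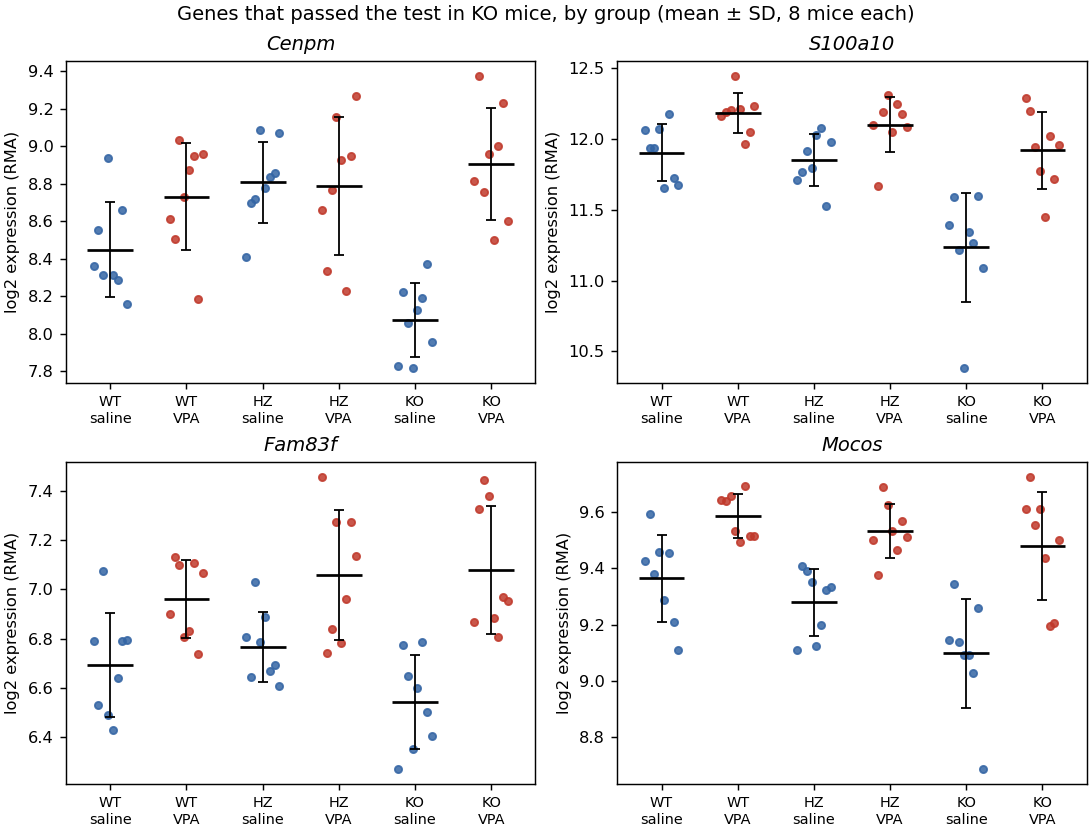
Log2 expression of the 4 genes that rose in KO mice, in each of the 48 mice by genotype and treatment; points are mice (blue saline, red VPA), bars the mean ± SD of 8 mice. For Cenpm and Fam83f every KO VPA mouse lies above every KO saline mouse, and KO saline mice have the lowest mean of the 6 groups for each of the 4 genes.

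Over all probesets, the groups did not overlap in 5 that were higher with VPA (0.0141%) and 3 that were lower (0.00844%). Beside Cenpm and Fam83f these were Tlcd2 (0.58, adjusted p = 0.115), Pomk (0.23, adjusted p = 0.415), Cab39 (-0.20, adjusted p = 0.302) and 3 probesets that carry no symbol of a single gene. Tlcd2, Pomk and Cab39 were named after their values were seen. In each direction 1 of the 12870 splits of the KO mice separates the groups fully. Some of the 35556 probesets are therefore due to separate by chance. Pomk is a kinase that acts on the sugar of dystroglycan, and Cab39 is the scaffold of the LKB1 complex that activates AMPK.

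The probesets next in order did not pass. Ppfibp2, a liprin of cell contacts, was higher by 0.30 (SE 0.06, adjusted p = 0.0526), from 8.36 to 8.80 with saline and 8.58 to 8.98 with VPA. Slc17a2, a transporter of organic anions and phosphate, was lower by -0.38 (SE 0.08, adjusted p = 0.0531), from 11.0 to 11.6 with saline and 10.6 to 11.1 with VPA. Both groups overlapped for both genes. Slc17a2 was the lower gene with the smallest p and came past the threshold when the test was restricted to 1 probeset per gene, where 6 genes passed.

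Among the further genes with a small p, the enzymes Aldh1a1 and Aldh1a7, which oxidise retinal and other aldehydes, were higher by 0.44 and 0.48 (adjusted p = 0.10 for each). As near copies they may share probes. Aldh1a1 lay between 12.3 and 13.1 with saline and between 12.8 and 13.3 with VPA. Cyp8b1, the sterol 12-alpha-hydroxylase that sets the share of cholic acid in bile, was higher by 0.75 (SE 0.17, adjusted p = 0.10). It ran from 10.2 to 12.0 with saline (median 11.4) and from 11.5 to 12.3 with VPA (median 12.1), with the WT saline mice at 12.0 to 12.8. Aldoc, an aldolase of glycolysis, was higher by 0.52 (adjusted p = 0.106). Gyg, which primes glycogen, was higher by 0.39 and the zinc-sensing receptor Gpr39 by 0.44 (adjusted p = 0.10 for each).

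On the lower side, Foxk2, a forkhead repressor of autophagy genes, was lower by -0.32, Zbtb7a, a repressor of transcription, by -0.29, and Baz1a, a chromatin remodelling factor, by -0.38 (adjusted p = 0.10 for each). Tgfbr1, the type I receptor of TGF-beta, was lower by -0.39 (adjusted p = 0.209). In each of these 4 genes all 8 VPA mice were below the mean of the saline mice. None passed.

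Lepr, the receptor of leptin, showed the lowest difference among the genes named here at -1.36 (SE 0.35, adjusted p = 0.209, exact permutation p = 0.0359). The KO saline mice ran from 7.13 to 10.05 (median 9.26) and the KO VPA mice from 6.53 to 9.77 (median 7.10). The VPA mice fell into 2 sets, with mice 4 and 5 at 9.77 and 9.74 and the other 6 between 6.53 and 7.31. WT saline mice lay between 6.14 and 7.71. In all, 4 VPA mice were below every saline mouse. Lepr, Elovl3, Cyp8b1, Sult3a1 and Fmo2 are on the study's list of genes altered by genotype, which was chosen with these KO mice.

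Members of the study's list of genes altered by VPA were, in KO mice, 7 higher and 3 lower of 10, with 3 that passed. Of the others, Tbc1d19 was higher by 0.48, E130311K13Rik by 0.39 and Pcna, the sliding clamp of DNA replication, by 0.36 (adjusted p = 0.10, 0.189 and 0.32). Efhd2 was lower by -0.43 (adjusted p = 0.204). Gpr39 and Lypd1 are 1 entry of the study's list and were counted apart here. Gpr39 was higher by 0.44 (adjusted p = 0.10), and Lypd1, measured by a different probeset, was lower by -0.11 (adjusted p = 0.816). Pcna ran from 9.50 to 10.60 with saline and from 10.10 to 10.80 with VPA. Without KO saline mouse 2, 6 of these 10 genes passed, and without KO saline mouse 8 none did. KO saline mice 2 and 8 were the arrays furthest apart on the first component of the KO arrays.

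Cholesterol synthesis was 1 of 2 lists whose measured members all lay on 1 side of 0, beside the clock repressors. Of 24 listed genes 19 were measured, and all 19 were higher with VPA. Of them 13 had an unadjusted p under 0.05, against a background of 4.12% of genes higher and 3.61% lower. None passed adjustment. Members of a list were measured in the same mice and can vary together, so such counts are not independent results. The 19 genes averaged 10.59 to 11.43 per KO saline mouse and 11.09 to 11.63 per KO VPA mouse, so the groups overlapped. The median difference was 0.36, beside -0.01 over all 19938 genes, and it was 0.10 in WT mice and -0.20 in HZ mice. The count at an unadjusted p under 0.05 was 16 without KO saline mouse 2 and 11 without KO saline mouse 8, with all 19 higher in both.

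At the head of the pathway, Hmgcs1, which makes HMG-CoA, ran from 10.7 to 12.4 with saline (median 11.6) and from 11.6 to 12.7 with VPA (median 12.3). Its difference was 0.71 (SE 0.24, adjusted p = 0.422), and its groups overlapped. Mvk, the mevalonate kinase, was higher by 0.36, and Fdps, which makes farnesyl diphosphate, also by 0.36 (adjusted p = 0.347).

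Lss, the synthase that closes the sterol ring, ran from 9.63 to 11.22 with saline and from 10.37 to 11.64 with VPA, a difference of 0.72 (SE 0.22, adjusted p = 0.343). Later enzymes were higher by 0.50 (Cyp51), 0.40 (Msmo1), 0.31 (Nsdhl) and 0.51 (Dhcr7, adjusted p = 0.267), the last of which makes cholesterol itself. Dhcr7 had the smallest p of the list, and its saline mice lay between 10.1 and 10.9 and its VPA mice between 10.7 and 11.2. Srebf2, which encodes SREBP2, was higher by 0.21, and Insig1, which holds SREBP back in the membrane, by 0.12. Fatty acid synthesis, with 21 measured genes, had 10 higher and 11 lower and a median of -0.01.

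**Figure D3:**
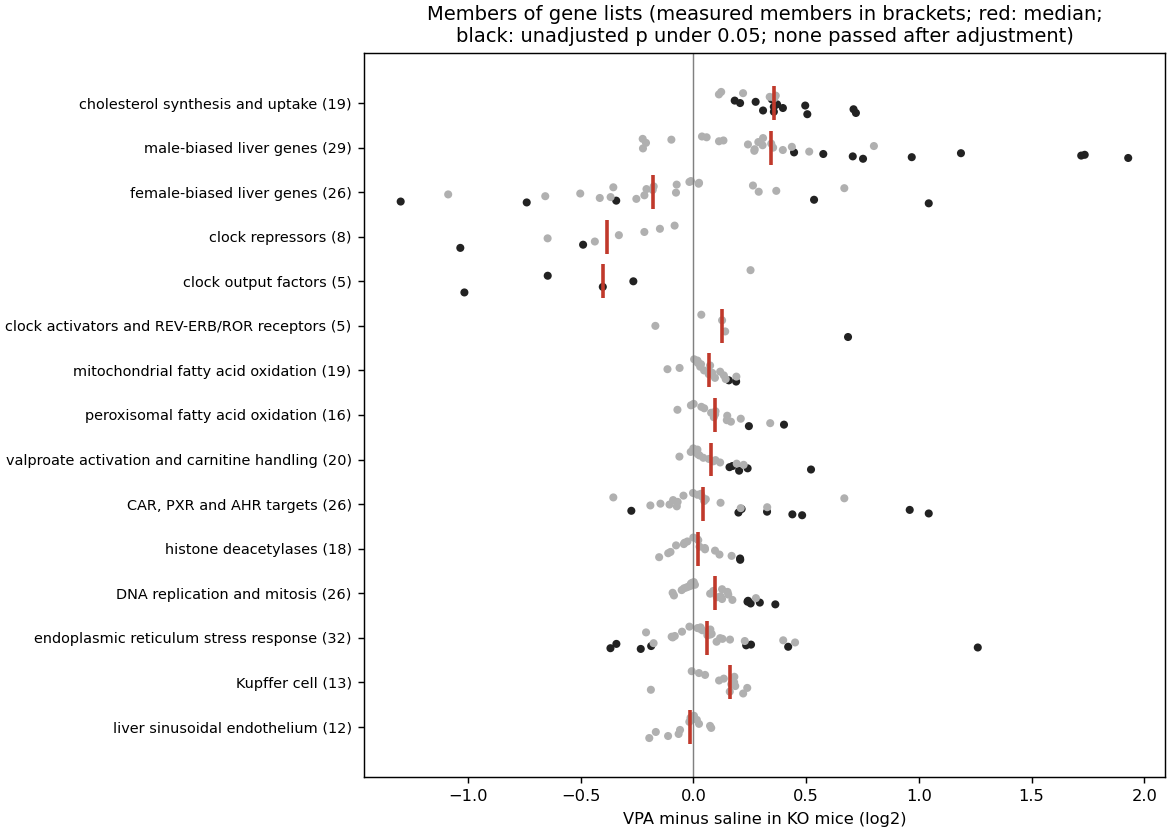
VPA minus saline in KO mice (log2, x axis) for each measured member of 15 gene lists (y axis, with the number measured); black points have an unadjusted p under 0.05, grey points do not, and the red line is the median. All 19 genes of cholesterol synthesis lie right of 0 with a median of 0.36, and all 8 clock repressors lie left of 0. Of the cell type lists, Kupffer cells have 11 of 13 right of 0 (median 0.16) and sinusoidal endothelium a median of -0.02.

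Sex-biased genes of the liver varied most between KO mice. Of 29 measured male-biased genes 25 were higher with VPA (median 0.35), 9 at an unadjusted p under 0.05. Of 26 female-biased genes 18 were lower (median -0.18), 3 at that p, and none in either list passed adjustment. The shares were 31% and 11.5%, beside 4.12% of all genes higher and 3.61% lower. These p-values rest on a spread shared by all groups and are too small for genes that vary most in KO mice. For Elovl3 the SD was 2.15 in KO saline and 1.81 in KO VPA mice, beside 0.22 in WT saline mice. How many of the 9 and 3 would remain with the spread of KO mice alone was not tested. The medians were -0.04 and -0.06 in WT mice and 0.02 and -0.28 in HZ mice, where 4 female-biased genes fell and 2 male-biased genes rose. These counts varied with single KO mice. The male-biased count of 9 was 4 to 17 when single KO mice were left out, lowest without saline mouse 5 and highest without VPA mouse 4. The female-biased count of 3 was 0 without saline mouse 2 or VPA mouse 1 and 7 without saline mouse 1, with medians from -0.30 to -0.02.

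Elovl3, an elongase of long fatty acids, had the largest difference in the male-biased list at 1.93 (SE 0.57, adjusted p = 0.314). It ran from 4.78 to 10.81 with saline (median 6.82) and from 5.62 to 11.18 with VPA (median 9.78), and WT saline mice lay between 11.0 and 11.6. Most KO mice of both groups were thus below the WT range, and the KO groups overlapped nearly whole. The paired genes Cyp4a12a and Cyp4a12b, which hydroxylate fatty acids and may share probes, were higher by 1.74 and 1.72 (adjusted p = 0.575 and 0.544).

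Sult3a1, a female-biased sulfotransferase, had the widest spread of all genes in KO mice, with a pooled SD of 3.38 within the groups. Its levels ran from 3.47 to 12.17 with saline and from 3.47 to 12.03 with VPA, against 3.16 to 3.60 in WT saline mice. The difference was -1.09 (SE 0.95, exact permutation p = 0.518). Cyp2b9, a female-biased cytochrome, lay between 12.2 and 13.6 in 6 KO saline mice and at 5.20 and 5.39 in mice 1 and 4. With VPA it was 5.32 in mouse 1 and 10.3 to 13.8 in the other 7 mice. Cyp2b9 also spread widely outside the KO mice. Its SD was 2.31 in WT saline and 2.60 in HZ saline mice, beside 3.65 in KO saline mice. Fmo2, a flavin monooxygenase, was lower by -0.74 (exact permutation p = 0.156), and Slc22a26, an organic anion transporter, by -1.30 (adjusted p = 0.664).

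**Figure D4:**
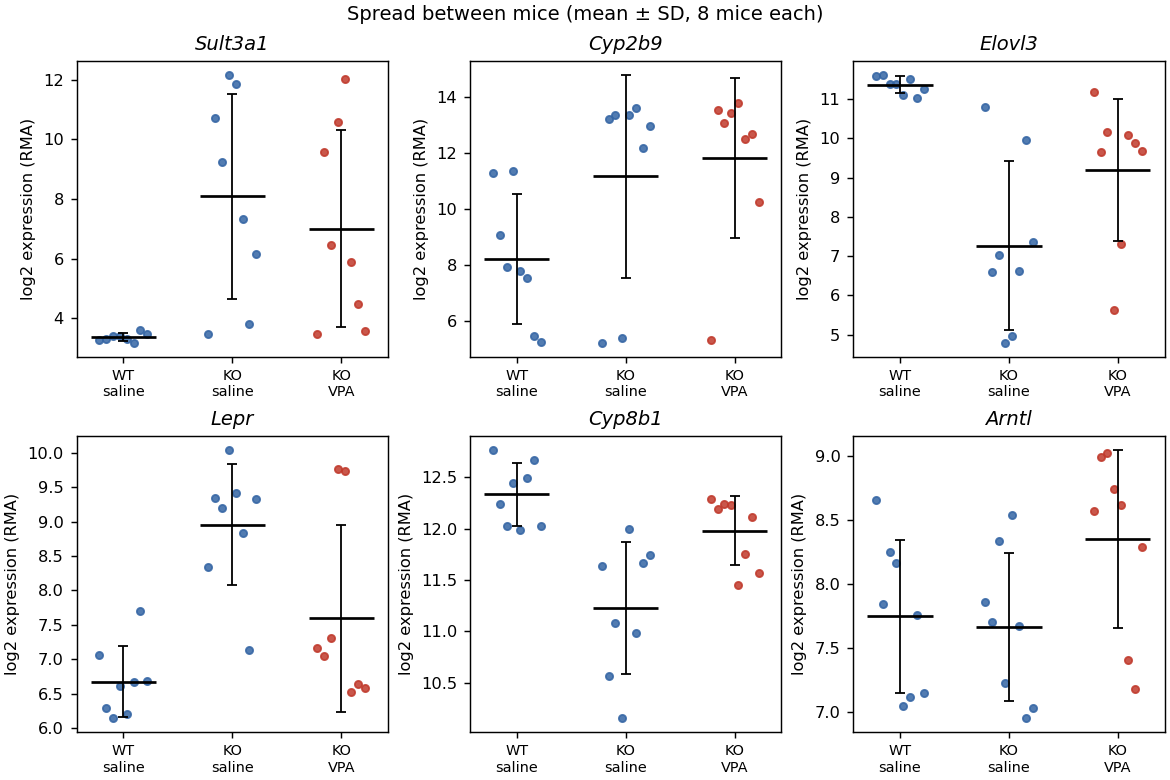
Log2 expression (y axis) of 6 genes in single mice of the WT saline, KO saline and KO VPA groups, with mean ± SD of 8 mice. Sult3a1, Cyp2b9, Elovl3 and Lepr spread over several log2 units within a KO group, with Cyp2b9 also wide in WT saline mice (SD 2.31). The VPA mice fell into 2 sets for Lepr, while Cyp8b1 ran from 10.2 to 12.0 with saline and 11.5 to 12.3 with VPA.

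By a test of the difference, the VPA effect on clock genes differed between KO and HZ mice in 2 of 8 repressors, 3 of 5 activators and receptors and 4 of 5 output factors, beside 65 of all 19938 genes (0.326%). The other repressors did not pass that test, among them Per2 (adjusted p = 0.319) and Ciart (adjusted p = 0.0505). All 8 repressors were lower with VPA in KO mice, with a median of -0.38, beside -0.65 in WT and -1.22 in HZ mice. Of them 2 had an unadjusted p under 0.05 (25%, beside 3.61% of all genes lower at that p). That count was 0 without KO VPA mouse 3 and 5 without KO VPA mouse 4. Ciart was lower by -1.03 (adjusted p = 0.579), Per2 by -0.49 (adjusted p = 0.633) and Per3 by -0.33 (adjusted p = 0.846). Arntl, which with Clock drives the repressors, was higher by 0.69 (SE 0.23, adjusted p = 0.415). It ran from 6.95 to 8.54 with saline (median 7.69) and from 7.18 to 9.02 with VPA (median 8.59), and the groups overlapped.

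Among the output factors, Dbp was lower by -0.65 (SE 0.29, adjusted p = 0.647) and Tef by -0.40 (adjusted p = 0.408). Dbp and Tef pass clock time on to other genes. Usp2, a ubiquitin-specific protease on the same list, was lower by -1.02 (adjusted p = 0.343). Nfil3, which opposes Dbp at the D-box, was higher by 0.25 (adjusted p = 0.701). A summary of 12 clock genes, signed so that genes of the Arntl phase count upward, averaged -0.638 in KO saline mice (SD 0.435) and -0.097 in KO VPA mice (SD 0.517). KO VPA mice 1 to 3 lay between 0.437 and 0.592, and the other 5 between -0.719 and -0.313, inside the saline range of -1.178 to -0.1. In WT mice the same index averaged -0.155 with saline and 1.086 with VPA, and in HZ mice -1.137 and 0.942, without overlap of the 2 groups in either. The hour of killing is not given in the sources used here, and its part in these values was not tested.

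Whether KO mice responded differently from the others was tested directly. For KO against WT, no probeset passed, with 974 (2.74%) at an unadjusted p under 0.05 and none with the other fits of all 48 arrays. Ppard, the nuclear receptor PPAR delta, came closest. Its means were 8.46 (saline) and 8.64 (VPA) in KO mice and 8.36 and 9.45 in WT mice. The difference of effects was -0.92 (SE 0.22, unadjusted p = 9.52e-05, adjusted p = 0.966). Within genotypes, Ppard passed in WT mice (1.099, adjusted p = 4.97e-05) and HZ mice (0.685, adjusted p = 0.00307). It did not pass in KO mice (0.18, adjusted p = 0.874, exact permutation p = 0.196). Those calls do not test the difference, which did not pass for KO against HZ either (-0.51, adjusted p = 0.365). By qRT-PCR, the paper reports a similar VPA effect on Ppard that depended on genotype. Nr1d2, a clock repressor of the REV-ERB family, differed by 0.71 (SE 0.17, adjusted p = 0.966), from -0.17 in KO to -0.88 in WT mice.

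For KO against HZ, 76 probesets passed (0.214%), 39 with a higher and 37 with a lower value in KO mice. In 70 of them the absolute effect was larger in HZ mice, in 44 the signs were opposite, 73 passed in HZ mice and 1, Cenpm, in KO mice. Entpd5, a nucleotidase of the endoplasmic reticulum that serves protein folding, had the smallest p, with effects of 0.31 in KO and -0.49 in HZ mice (difference 0.80, SE 0.11, adjusted p = 0.000211). Slc30a10, the manganese exporter, was at -0.05 in KO and 1.21 in HZ mice (difference -1.26, adjusted p = 0.00106).

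Metabolic enzymes were among the rest. Car5a, the mitochondrial carbonic anhydrase, differed by 0.73 (adjusted p = 0.00225), Hsd17b10, a mitochondrial dehydrogenase, by 0.50 (adjusted p = 0.00257), Slc2a5, the fructose transporter, by 1.42 (adjusted p = 0.00397), and Aldoc by 0.91 (adjusted p = 0.0067). Clock genes were there too, Dbp with a difference of 2.40 (adjusted p = 0.00257), Per3 with 2.07 (adjusted p = 0.00225) and Arntl with -1.67 (adjusted p = 0.0121). Markers of other liver cells moved in the HZ mice of this comparison. Of 13 Kupffer cell markers 10 rose in HZ mice (median 0.75), of 12 of sinusoidal endothelium 8 (median 0.36) and of 14 of stellate cells 4 (median 0.23), and none fell. Over all 19938 genes 1090 rose and 1406 fell in HZ mice. The Kupffer markers averaged 8.23 to 9.07 per HZ saline mouse and 8.96 to 9.50 per HZ VPA mouse, and the endothelial markers 8.96 to 9.27 and 9.31 to 9.66. The stellate markers averaged 8.34 to 8.61 and 8.52 to 8.83. Their part in the difference between KO and HZ mice was not tested.

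**Figure D5:**
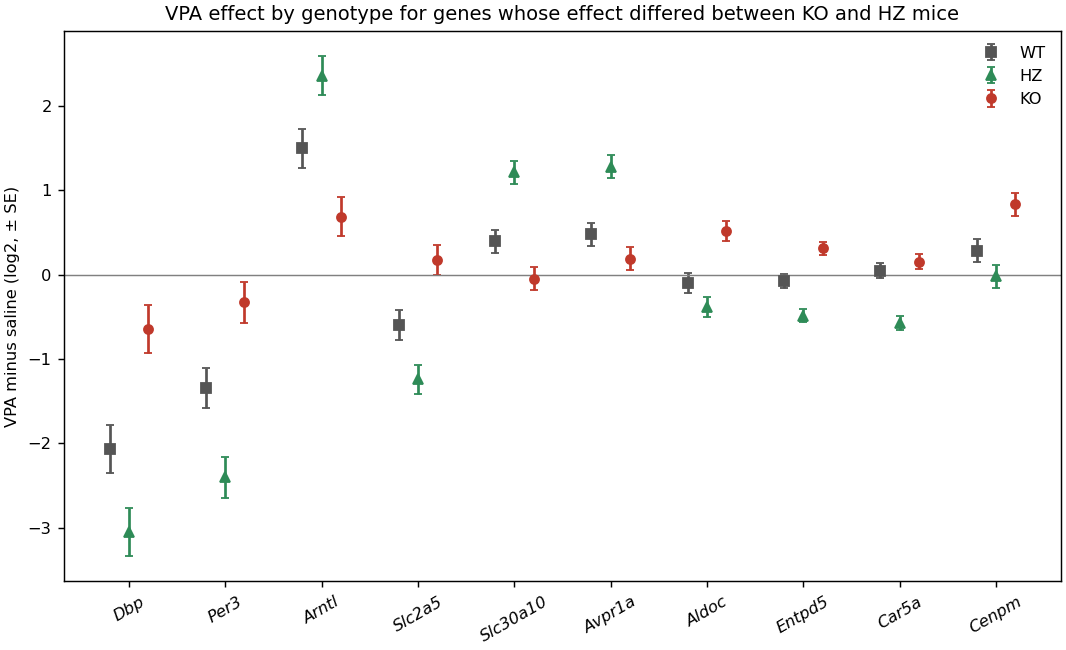
VPA minus saline (log2, y axis) with its SE for 10 genes whose effect differed between KO and HZ mice, by genotype (grey squares WT, green triangles HZ, red circles KO). For Dbp, Per3 and Arntl the KO effect is the smallest of the 3 genotypes, with -0.65 in KO and -3.05 in HZ mice for Dbp, while Cenpm is highest in KO mice.

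Genes that handle VPA itself had small differences. Of 20 measured genes of valproate activation and carnitine handling 17 were higher (85%), 5 at an unadjusted p under 0.05 (25%), with a median of 0.08. That count of 5 was 3 without KO saline mouse 4 or 8 or KO VPA mouse 1. Over all genes 44.7% were higher, and 4.12% were higher at that p. Of 19 genes of mitochondrial fatty acid oxidation 17 were higher (median 0.07), with Acadm, the medium-chain dehydrogenase, at 0.19. Of 16 peroxisomal genes 14 were higher (median 0.10), among them Ehhadh, the bifunctional enzyme, at 0.40 (adjusted p = 0.314), and Acox2, the oxidase of branched acids, at 0.25 (adjusted p = 0.198). No member of these 3 lists passed.

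Of 18 histone deacetylases 10 were higher and 8 lower, with a median of 0.02, and Hdac3 was higher by 0.21 (adjusted p = 0.395). Targets of the xenobiotic receptors CAR, PXR and AHR had 16 of 26 higher (61.5%, beside 44.7% of all genes). At an unadjusted p under 0.05, 7 were higher (26.9%) and 1 was lower (3.85%), beside 4.12% and 3.61% of all genes. Cyp2b10, the best known target of CAR, ran from 6.10 to 8.75 with saline (median 7.06) and from 7.31 to 10.29 with VPA (median 8.07). Its difference was 1.04 (SE 0.30, adjusted p = 0.302), and the groups overlapped.

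Genes of glucose metabolism and its signals lay on both sides of 0. Of 21 genes of gluconeogenesis, glycolysis and glycogen 10 were higher and 11 lower (median -0.01). At an unadjusted p under 0.05 none was higher and 3 were lower (14.3%, beside 3.61% of all genes). That count of 3 was 0 without KO saline mouse 8 or KO VPA mouse 2 or 8, and 5 without KO saline mouse 3 or KO VPA mouse 7. Of 15 genes of insulin signalling 5 were higher and 10 lower, with Pik3r1, a regulatory subunit of PI3 kinase, at -0.32 (adjusted p = 0.302). In the list of the growth hormone axis 13 of 14 genes were lower, beside 11027 of all 19938 genes, with a median of -0.06. That list also holds Lepr, the receptor of leptin, which had the smallest p. Lepr was its only member at an unadjusted p under 0.05 (7.14%, beside 3.61% of all genes lower). Of 26 genes of bile acid synthesis and transport 15 were higher (median 0.03), Cyp8b1 among them, and Cyp7a1, the rate-limiting enzyme of bile acid synthesis, was higher by 0.24 at an unadjusted p of 0.36. None of these genes passed.

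Of the study's list of genes with an interaction of genotype and treatment, likewise chosen on these mice, 9 were measured, and 4 were higher and 5 lower in KO mice. Fnbp4, a binding partner of formins, was lower by -0.23 (adjusted p = 0.10). Aldh9a1, which makes a precursor of carnitine, was higher by 0.20 (adjusted p = 0.331), Zfp334 was lower by -0.22 (adjusted p = 0.343) and Cyp2j9 by -0.33 (adjusted p = 0.665). Lnx2 was at -0.0047 in KO mice (adjusted p = 0.996) and at 0.40 in WT mice, where it passed (adjusted p = 0.0124). Piezo2, a mechanically gated channel, was at 0.08 in KO mice (adjusted p = 0.91), -0.33 in WT and -0.17 in HZ mice.

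In the stress response of the endoplasmic reticulum, 21 of 32 genes were higher and 11 lower, with a median of 0.06. Asns, an asparagine synthetase under ATF4, was higher by 1.26 (adjusted p = 0.563), and Hyou1, a chaperone, by 0.42. Herpud1, which serves degradation of proteins of this membrane, was lower by -0.37. DNA replication and mitosis had 17 of 26 higher, 5 at an unadjusted p under 0.05 (19.2%, beside 4.12% of all genes). These 5 were Pcna, Rrm1, Mcm2, Mcm3 and Mcm5, and none of them passed. That count was 1 without KO VPA mouse 3, where the median was 0.04 against 0.10, 2 without KO VPA mouse 6 or 7 and 3 without KO saline mouse 2, 3 or 4. Cenpm was not on that list. Fat uptake genes Cd36 and Lpl were higher by 1.00 (adjusted p = 0.302) and 0.57 (adjusted p = 0.515).

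Markers of liver cell types were examined in the same mice. The 9 measured hepatocyte markers averaged 13.77 to 13.92 per KO saline mouse and 13.69 to 13.87 per KO VPA mouse on the log2 scale. Of 13 Kupffer cell markers 11 were higher (84.6%, beside 44.7% of all genes), with a median of 0.16 and none at an unadjusted p under 0.05. They averaged 8.52 to 9.39 with saline and 8.76 to 9.44 with VPA. Endothelial and stellate markers had medians of -0.02 and -0.02. In bulk RNA fewer cells of a type and less RNA per cell cannot be told apart, and the part of cell makeup in the results above was not tested.

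The arrays of KO mice correlated with each other by 0.972 to 0.992, and array medians ran from 6.90 to 7.03 over all 48. KO saline mice 2 and 8 and KO VPA mouse 3 were given the lowest weights of their groups (0.459, 0.622 and 0.607) when arrays were weighted by their fit. The label numbers of the samples ran in an unbroken block within each group, 23 to 30 for KO saline and 77 to 84 for KO VPA. If they mark an order of handling, that order and the treatment cannot be told apart.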

How the data were processed

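Liver RNA (integrity number 7 to 9) of 48 male mice was hybridised to Affymetrix Mouse Gene 1.0 ST arrays, 1 array per mouse. The authors made the deposited log2 values with RMA (background correction, quantile normalization, summary per probeset), and the submitters' processing notes name Affymetrix Expression Console 1.1.2800.28061. The build is not given in the sources used here. No array was left out and nothing was normalized again.

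Samples were grouped by their labels. A mean per group was fitted with limma 3.58.1 in R 4.3.3 over all 48 arrays, which share 1 estimate of the spread (42 residual degrees of freedom, eBayes), after the two-way design of the study. Contrasts were VPA minus saline within KO, WT and HZ mice, and the KO effect minus that of WT or HZ mice. Two-sided p-values were adjusted over the 35556 probesets (Benjamini-Hochberg), with calls at 0.05. For single genes, exact permutation tests ran over all 12870 splits of the KO mice, without adjustment for the choice of genes. The limma p-values rest on a spread shared by the mice of all groups. For genes that vary most in KO mice, the p-values and SEs within KO mice are therefore too small. The number of arrays limits the precision.

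Of the probesets 21789 carried 1 gene symbol, 1621 several and 12146 none. Where a gene had several probesets, that with the highest mean stood for it (19938 genes). Genes were named by rule: the 15 with the smallest p in each direction, the members of 47 lists (698 of 768 genes measured, older symbols updated through RefSeq) that passed or had the smallest p, genes the study names, and the 5 with the smallest p in each direction of the genotype differences. The groups, lists and rules were chosen with earlier results of these data known. The CCAAT and sterol element searches were added after values were seen. Only part of the genes under the rule is printed. Fits were tested on simulated data. Alternatives were array weights, trend and robust moderation, no moderation, centring, another quantile normalization, filters on dim or unnamed probesets, 1 probeset per gene, only the arrays compared, the replicate block, a clock index as covariate, other thresholds and, for calls and list counts, leaving out each array. Plots used matplotlib 3.10.9 (Python 3.11.15).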

Additional observations from a re-analysis of the deposited data

Results flagged for a closer look

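Among 156 groups of 8 KO mice examined for a mouse far from the others, 6 had one, and chance gives about 1 in 20. S100a10 was 10.4 in KO saline mouse 4, with the nearest mouse at 11.1. Ppfibp2 was 8.8 in KO saline mouse 2 (nearest 8.55), and Foxk2 was 8.39 in KO saline mouse 6 (nearest 8.74). With VPA, Aldoc was 9.7 in mouse 4 (nearest 9.24), Cyp2b9 was 5.32 in mouse 1 (nearest 10.3) and Cd36 was 8.93 in mouse 8 (nearest 10.2).

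The VPA effect of 19 named genes differed between KO and HZ mice by the test of the difference. The KO effect minus the HZ effect was higher for Cenpm (0.853), Aldh1a7 (0.633), Aldh1a1 (0.661), Tmem184a (0.674), Aldoc (0.907), Nr1d2 (0.865), Usp2 (1.95), Tef (0.931), Dbp (2.4), Per3 (2.07), Ugdh (0.882), Entpd5 (0.797), Car5a (0.728), Hsd17b10 (0.498) and Slc2a5 (1.42). It was lower for Nfil3 (-0.874), Arntl (-1.67), Slc30a10 (-1.26) and Avpr1a (-1.09). No gene met the same test for KO against WT.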

How the results depend on the processing

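The count of 4 probesets in KO mice became 0 with only the KO arrays, 13 with array weights, 2 with trend and robust moderation, 1 with the clock index as a covariate, 9 with another quantile normalization, 7 at an adjusted p of 0.1, 1 at 0.01 and 115 at an unadjusted p of 0.001. It was 3 to 6 with centring, the filters, no moderation and the replicate block (4 in the block, 3 of them shared, with Fam83f at an adjusted p of 0.058). Leaving out single arrays gave 1 to 23: 23 without KO saline mouse 2, 8 without KO VPA mouse 5 or 7, 2 without KO saline mouse 1, 3 or 4 or KO VPA mouse 4 or 8, and 1 without KO saline mouse 8 or KO VPA mouse 1 or 2. Leaving out KO saline mice 2 and 8 together, chosen after seeing the data, gave 10. With the group means taken out, the residuals of same-numbered KO arrays correlated by over 0.1 in 7 of 8 pairs. They ran from -0.021 to 0.37 with a mean of 0.14, where pairing was taken to need all 8. Pairs of unlike number were not compared.

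The count of 76 for KO against HZ became 317 with array weights, 143 with 1 symbol, 141 with 1 probeset per gene, 117 with another quantile normalization, 0 with the clock covariate and 42 to 153 without single arrays. It was 153 without KO saline mouse 8, 42 and 44 without HZ saline mouse 4 and 5, 46 without KO saline mouse 5, 47 without KO VPA mouse 7 or 8, and 45, 49 and 50 without HZ VPA mouse 1, 4 and 6. The count of 0 for KO against WT became 1 without WT VPA mouse 7 and was 0 to 1 without single arrays. The restricted tests covered fewer probesets and the fit of KO arrays fewer samples. The clock index is built from genes that differ with VPA in HZ mice. Among them are Dbp, Per3 and Arntl, which are part of the 76, so that covariate removes part of the outcome itself. Its counts therefore say little about the genotypes. Under it Cenpm kept its call in KO mice (adjusted p = 0.0128), while S100a10 (0.196), Fam83f (0.421) and Mocos (0.325) lost theirs. The difference of Cenpm between KO and HZ mice had an adjusted p of 0.46 under it. The cause of these changes was not tested for this or the other settings. The number of arrays limits what could be called.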
